A study of Homo sapiens with 36 samples.

Results

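Of the 36 RNA sequencing libraries of the series, 18 were compared here: 9 labelled sunitinib-resistant A498 and 9 labelled 786-O parental. The libraries of each set were taken by their labels. The 2 sets were compared because the expression profile of the libraries labelled A498 resistant lies nearer to 786-O than to A498. A498 and 786-O are cell lines long used as models of human clear cell renal carcinoma. Sunitinib blocks receptor tyrosine kinases of the VEGF and PDGF families, KIT, FLT3 and CSF1R, and the labels give 2 µM as the concentration at which resistant A498 cells grew to confluence. The parental cells had no such selection. Each set held 3 libraries treated with atezolizumab, 3 with avelumab and 3 with durvalumab, antibodies against PD-L1, for 24 h at a labelled concentration of 10 mg/mL. No library without an antibody was analysed here, so every value below is one under an antibody. The other 18 libraries, 9 labelled 786-O resistant (selected at 4 µM) and 9 labelled A498 parental, served as references.

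Total counts ran from 19994882 to 37219906 per library (median 23643924) in the libraries labelled A498 resistant and from 32869829 to 58122896 (median 36757952) in 786-O parental. Each of the 4 cell states carries a batch label of its own, so sunitinib selection, batch and, for the libraries labelled A498 resistant, the line they came from cannot be told apart. Whether the libraries within a group stem from separate cultures is not labelled, and the spread that p-values measure here may therefore be technical. Levels are CPM, the count of a gene scaled to a common library total, and are given as the lowest, the median and the highest of 9 libraries. A log2 difference is the libraries labelled A498 resistant minus 786-O parental, averaged over the 3 antibodies and given ± SE. P-values are from edgeR's quasi-likelihood test, adjusted over all genes by the Benjamini-Hochberg method, and a gene was called at an adjusted p below 0.05.

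Genes that separate the 2 parental lines are described first. Because the libraries were taken up for a profile nearer to 786-O, these genes, the sums and the correlations below describe that profile. They are not an independent test of the label. Clear cell carcinoma is known for loss of VHL, the part of a ubiquitin ligase that marks the hypoxia-inducible factors for destruction, and 786-O is known to make HIF-2α but not HIF-1α. HIF1A, the gene of HIF-1α (chromosome 14, 61695513 to 61748259 on GRCh38), was at 8.40, 9.0 and 9.73 CPM where the label is A498 resistant. In 786-O parental it was at 8.33, 9.46 and 10.3 CPM, and in A498 parental its median was 295 CPM. The 2 sets compared here overlapped in HIF1A and both lay far below A498 parental. The averaged log2 difference of HIF1A was -0.20 ± 0.046 (adjusted p = 0.000139). Without a scaling factor it was not called (adjusted p = 0.235). EPAS1, which encodes HIF-2α and was chosen after its values were seen, was at a median of 249 CPM against 166.

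Beyond single genes, 35 genes with at least 20 CPM in A498 parental and at most 0.1 CPM in 786-O parental were summed in each library. Where the label is A498 resistant, their sum was 0.652, 1.24 and 1.49% of the A498 parental mean, against 0.0733, 0.12 and 0.157% in 786-O parental, and 3 of the 35 passed 1 CPM. Of those 3, 2 lie on a sex chromosome, and leaving out the genes there, a choice made after the values were seen, left 32 genes. Of these 32, the sum in the libraries labelled A498 resistant was 0.668, 0.701 and 0.824% of its mean in A498 parental. In 786-O parental it was 0.0777, 0.123 and 0.16%, and in 786-O resistant 0.372, 0.398 and 0.478%. The autosomal gene past 1 CPM was FAM43A, at a mean of 4.08 CPM against 24.1 in A498 parental and 0.0976 in 786-O parental. In the opposite direction, 16 genes with the same limits marked 786-O, at a median of 114% of 786-O parental. Of them 10 were autosomal, among them WT1, a transcription factor of the developing kidney, and UCA1, a long noncoding RNA. Their sum in the libraries labelled A498 resistant was 116, 117 and 122% of the mean in 786-O parental, and A498 parental held at most 0.221%. In 786-O resistant their sum was 113, 123 and 129%. All 10 stayed above 1 CPM in the libraries labelled A498 resistant, although not at the same level. UCA1 was higher at 196 against 37.9 CPM (mean), and CXCL5, a neutrophil-attracting chemokine, lower at 20.0 against 80.2. Over the pooled libraries of 786-O resistant UCA1 was at 196 CPM as well, and CXCL5 at 47.1. In the libraries labelled A498 resistant the sum passed the mean of 786-O parental through UCA1. The median level of the 10 genes was lower there, at 25.1 against 31.9 CPM over the pooled libraries.

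**Figure D1:**
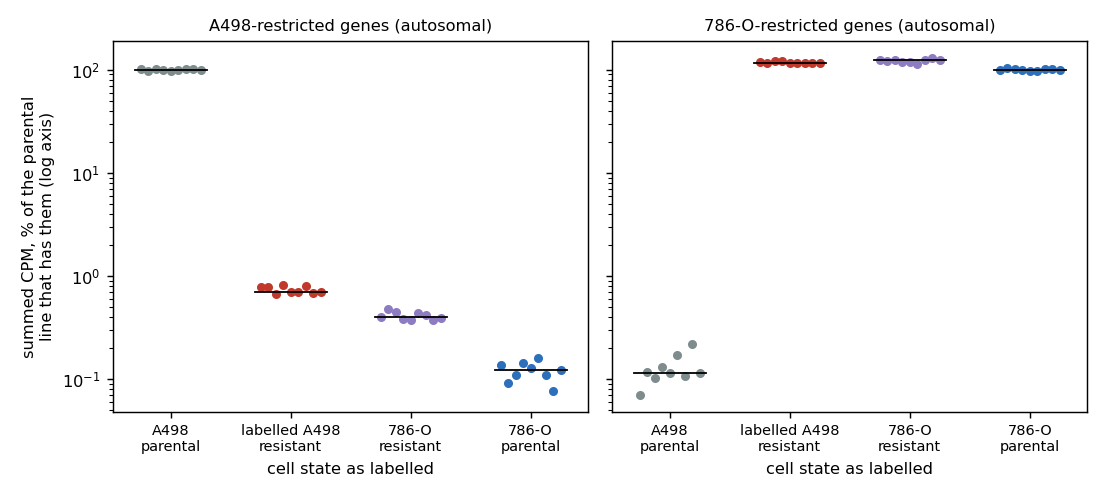
Summed CPM of autosomal genes restricted to 1 parental line, as a percent of their mean in that line (log axis), for each of 36 libraries (points) with the median of each cell state (bars). The libraries labelled A498 resistant lie at 0.668 to 0.824% for genes of A498 and at 116 to 122% for genes of 786-O, a sum raised by UCA1.

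Across 20752 genes, which are not independent replicates, log2 CPM of single libraries labelled A498 resistant correlated with those of 786-O parental at r of 0.953 to 0.9585. Against 786-O resistant r was 0.9808 to 0.9874, against A498 parental 0.8765 to 0.8827, and among themselves 0.9916 to 0.9948. The libraries therefore stood apart from 786-O parental beyond the spread within the set, and less so from 786-O resistant.

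Markers of other cells were low in both sets. The 18 leukocyte markers summed to 1.65 to 2.31 CPM where the label is A498 resistant and to 2.2 to 3.10 in 786-O parental, where CSF1R alone passed 1 CPM. TYROBP was at 0 in both sets. The 12 endothelial markers summed to 3.13 to 4.70 against 1.31 to 2.08 CPM, and ESAM alone passed 1 CPM, in the libraries labelled A498 resistant. The 12 fibroblast and pericyte markers summed to 43.1 to 48.4 against 14.1 to 17.1 CPM, and 6 against 4 of them passed 1 CPM (ACTA2, COL1A1, LUM and RGS5 in both sets, PDGFRB and THY1 in the libraries labelled A498 resistant only). Their part in the results below was not tested. In bulk RNA, fewer cells of a type and less RNA per cell cannot be told apart.

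Most genes differed. Of 18901 tested genes, 15780 were called (83.5%), 8070 of them higher (42.7%) and 7710 lower (40.8%). The change was at least 2-fold for 2582 genes higher (13.7%) and 1052 lower (5.57%), and these are the shares against which the counts of each gene group below are read. In 10555 genes (55.8%) the 9 libraries of one set did not overlap the 9 of the other, 6641 higher (35.1%) and 3914 lower (20.7%). The median log2 difference over all genes was 0.02. Without a scaling factor it was 0.16, and the split of calls moved from 8070 higher and 7710 lower to 9813 and 6019. The 20 most counted genes took 6.26 to 6.67% of counts in the libraries labelled A498 resistant and 8.21 to 8.82% in 786-O parental.

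Genes at the extremes were close to silent in one set. CPVL, a carboxypeptidase-like protein (chromosome 7, 28995231 to 29195451), was at 6.08, 6.80 and 8.54 CPM where the label is A498 resistant and had 0 counts in all 9 libraries of 786-O parental. At a floor of 3 counts over the group it was at least 840-fold higher. CYBRD1, a ferric reductase of iron uptake (chromosome 2, 171522247 to 171558133), was at 8.73, 9.47 and 11.2 CPM against 0, 0.0236 and 0.0304, a log2 difference of 8.97 ± 0.16 (adjusted p = 5.37e-37). ENPP5, a phosphodiesterase-family membrane protein (chromosome 6, 46159187 to 46170971), was at 5.83, 6.37 and 7.06 CPM, against 3 counts in all of 786-O parental. Its ratio was 748, with an exact 95% counting interval from 255 to 3630. For these genes, picked for the size of their difference, no library of one set came near any of the other.

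C4BPB, a subunit of the complement inhibitor C4b-binding protein (chromosome 1, 207088842 to 207099993), was at 5.56, 6.90 and 7.77 CPM against 0, 0.03 and 0.0767. DACH1, a transcriptional repressor of kidney and eye development, was at 4.57, 5.26 and 5.92 CPM against 0, 0.03 and 0.0608. SCN8A, a voltage-gated sodium channel, was at 25.5, 31.4 and 35.4 CPM against 0.0602, 0.123 and 0.213, 200-fold higher. OSBPL1A, an oxysterol-binding protein of endosomes, RASGRP3, an activator of Ras, CLDN16, a claudin of the thick ascending limb, and CERS4, a ceramide synthase, were 171-, 113-, 126- and 98.9-fold higher. LGALS9, the gene of galectin-9, a ligand of the checkpoint receptor TIM-3 (chromosome 17, 27629798 to 27649560), was at 31.2, 32.6 and 36.5 CPM against 0, 0.0599 and 0.12. Its value is uncertain, because LGALS9 shares sequence with near copies. IFITM1, an antiviral membrane protein, is uncertain for its overlap with IFITM2 and was 197-fold higher. 786-O resistant also expressed most of these genes. Its libraries held SCN8A at 15.52 to 20.17 CPM, OSBPL1A at 18.83 to 21.06, LGALS9 at 10.78 to 16.23 and IFITM1 at 8.229 to 14.61. RASGRP3 was at 7.699 to 11.2 and CERS4 at 7.045 to 9.855 CPM there, but CLDN16 at 0.4906 to 1.122. In A498 parental SCN8A was at 8.641 to 11.45, OSBPL1A at 16.35 to 19.32 and CERS4 at 14.03 to 17.81 CPM. CLDN16 was at 0.2037 to 0.4565 there.

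In the other direction, PLEK2, which links phosphoinositides to the actin cytoskeleton (chromosome 14, 67386983 to 67412200), was at 0, 0 and 0.0482 CPM where the label is A498 resistant and at 19.2, 20.9 and 23.4 CPM in 786-O parental. Its log2 difference was -10.07 ± 0.13 (adjusted p = 1.54e-42). B3GALNT1, which makes globoside, a glycolipid of the red cell P blood group (chromosome 3, 161083883 to 161105384), was at 0, 0 and 0.0965 CPM against 19.5, 21.1 and 25.2, a log2 difference of -9.67 ± 0.12. MT1L, annotated as a metallothionein pseudogene, was at 0, 0.0408 and 0.0889 CPM against 15.5, 17.6 and 19.3. These genes were thus near 0 in every library of the set labelled A498 resistant. IGFBP4, which binds insulin-like growth factors, was at 0, 0.05 and 0.0965 CPM against 9.37, 10.5 and 11.6. LAYN, a hyaluronan receptor, was at 0.0423, 0.10 and 0.163 CPM against 13.1, 14 and 15.3. PRTFDC1, a relative of the purine salvage enzyme HPRT, had 3 counts in all 9 libraries labelled A498 resistant, 378-fold lower with a counting interval from 129 to 1830. ALDH2, the mitochondrial aldehyde dehydrogenase, was at 0.578, 0.769 and 1.10 CPM against 47.8, 50.1 and 52.9. P2RY2, a receptor for extracellular ATP, and GALNT5, which starts O-linked glycosylation, were 120- and 58.5-fold lower. MALL and ALDH2 share sequence with near copies, and ZNF22 and the pseudogene CEP164P1 overlap each other, so their values are uncertain.

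**Figure D2:**
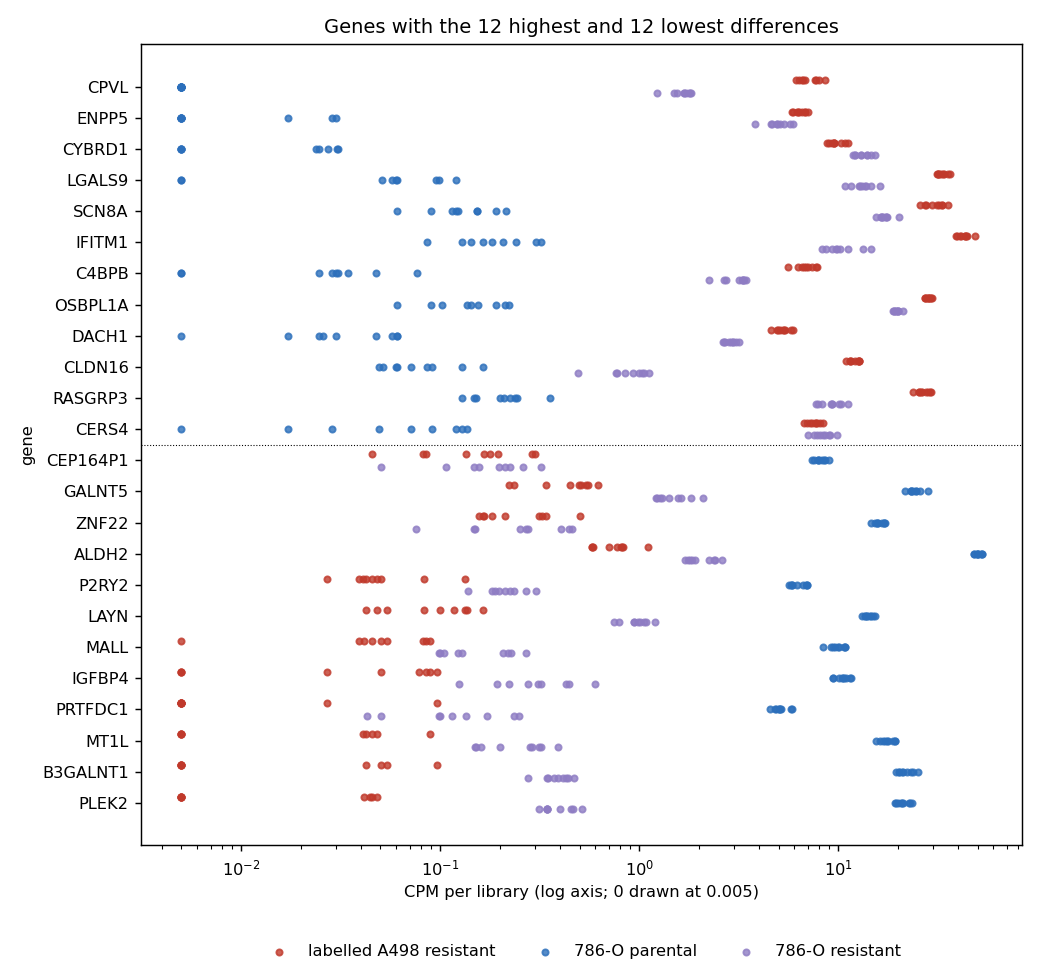
CPM in each library (points, log axis, 0 drawn at 0.005) of the 12 genes with the highest and the 12 with the lowest averaged log2 difference, for the libraries labelled A498 resistant (red), 786-O parental (blue) and 786-O resistant (purple). Red and blue points do not overlap for any of the 24 genes, which were picked for the size of their difference. CYBRD1 was at 8.73 to 11.2 against 0 to 0.0304 CPM. Of all tested genes, 55.8% did not overlap.

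A stricter description of on and off took genes at 5 CPM or more over one set and at most 0.05 CPM over the other. It held 5 genes on in the libraries labelled A498 resistant (CYBRD1, CPVL, ENPP5, C4BPB and DACH1) and 6 on in 786-O parental, 5 of them PLEK2, B3GALNT1, MT1L, IGFBP4 and PRTFDC1. Of the first 5, 786-O resistant held 2 at 5 CPM or more (CYBRD1 at 13.3 and ENPP5 at 5.01). C4BPB, DACH1 and CPVL were at 3.03, 2.86 and 1.64 CPM there. Of the 6 it held none at 5 CPM or more, and they lay from 0.128 to 0.393 CPM. A498 parental held 1 of the first 5 (CPVL at 5.7) and 4 of the 6 at 5 CPM or more.

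Promoters of these extremes were read from RefSeq (GRCh38.p14, 250 bases before to 50 after the start). Of the 12 highest genes 11 had an entry, and their promoters held a median of 3 CpG dinucleotides (lower and upper quartile 2 and 15). Of the 12 lowest 6 had an entry, with a median of 30 (quartiles 26.2 and 30). Both sets had exceptions: SCN8A held 52, CPVL 23 and ENPP5 18 among the highest, and MALL 0 among the lowest. All 12115 tested genes with a promoter had a median of 25. Among genes at 5 CPM or more in the higher set the medians were close, 25 for genes at least 2-fold higher, 24 for genes at least 2-fold lower and 27 for the others. Shown are the 80 bases before the start of 2 genes from each end, with CG in capitals, to let the letters behind these counts be read. They were picked after the counts were seen. They are LGALS9 (chr17:27631108-27631187, plus strand), RASGRP3 (chr2:33436268-33436347, plus strand), PLEK2 (chr14:67412166-67412245, minus strand) and B3GALNT1 (chr3:161105350-161105429, minus strand), each written 5′ to 3′ on the strand of the gene.
LGALS9: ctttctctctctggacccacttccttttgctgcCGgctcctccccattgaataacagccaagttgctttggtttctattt
RASGRP3: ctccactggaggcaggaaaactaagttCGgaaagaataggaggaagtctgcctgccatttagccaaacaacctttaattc
PLEK2: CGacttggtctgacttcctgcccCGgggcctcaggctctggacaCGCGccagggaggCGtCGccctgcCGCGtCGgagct
B3GALNT1: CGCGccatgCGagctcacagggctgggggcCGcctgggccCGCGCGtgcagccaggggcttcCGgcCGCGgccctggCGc
In these windows LGALS9 and RASGRP3 hold 1 CG each, PLEK2 9 and B3GALNT1 11. Over the 300 bases LGALS9 held 2 and RASGRP3 1, both below the median of 3 and RASGRP3 at the minimum of the 12 highest. PLEK2 and B3GALNT1 held 30 each, the median of the 12 lowest.

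Interferon-stimulated genes were higher in the libraries labelled A498 resistant. Type I interferons act through the receptor kinases JAK1 and TYK2 and a complex that holds STAT2 and IRF9 and binds the interferon-stimulated response element in the promoters of antiviral genes. Sensors of foreign RNA such as RIG-I and MDA5 start the response. Of 73 tested members of the list, 71 were higher and 1 lower, 62 of them at least 2-fold higher and none at least 2-fold lower, with a median log2 difference of 2.09 against 0.02 over all genes. The list summed to 15900 to 16700 CPM where the label is A498 resistant and to 4060 to 4630 in 786-O parental, and no library of either set reached the range of the other. 786-O resistant lay between, at 11000 to 12500 CPM, as did A498 parental, at 8390 to 10300.

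Among effectors, all 50 members were higher, 45 at least 2-fold. OAS2, which makes the 2′-5′ oligoadenylates that activate RNase L (chromosome 12, 112978395 to 113011723), was at 277, 294 and 314 CPM against 2.02, 2.98 and 5.52. Its log2 difference was 6.37 ± 0.057 (adjusted p = 2.9e-24). MX2, a dynamin-like restriction factor, was at 71.6, 75.8 and 80.5 CPM against 0.705, 1.22 and 2.11, and CMPK2, a mitochondrial nucleotide kinase next to the antiviral gene RSAD2, was 48.8-fold higher. The following members were chosen after their values were seen. IFI6, a mitochondrial survival protein, was at 611, 672 and 762 CPM against 20.2, 22.5 and 31.2. ISG15, the ubiquitin-like modifier, was at a median of 515 against 73.0 CPM.

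Of 12 sensors and signalling members, 11 were higher and 1 lower. IFIH1, which encodes MDA5, was at 136, 138 and 143 CPM against 13.7, 16 and 16.5, and RIGI, which encodes RIG-I, at a median of 104 against 17.2. IRF7, the master regulator of interferon-α genes, was at 44.0 against 4.44 CPM. The feedback inhibitors did not move alike: USP18, which removes ISG15 and blocks the receptor and is uncertain for near copies, was 6.62-fold higher, SOCS3 1.15-fold higher, and SOCS1 had a log2 difference of 0.16 ± 0.10 that did not pass (adjusted p = 0.14), though it did without a scaling factor (adjusted p = 0.00681) and with thinned counts (adjusted p = 0.00487). Of 8 tested genes known mainly as targets of interferon-γ, all were higher, with CXCL10 at a median of 2.85 against 0.258 CPM. The members named in these 3 classes were chosen after their values were seen.

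The interferon-stimulated response element was searched in the RefSeq promoters as GAAA, any 2 bases and GAAA, on both strands, with overlapping matches counted. It was in 34 of 56 promoters found for the interferon list (60.7%), in 344 of 12115 promoters of tested genes (2.84%) and in 996 of all 27305 promoters (3.65%). Within the list it was in 29 of 48 promoters of genes at least 2-fold higher (60.4%) and in 5 of 8 of the others (62.5%), so the share did not separate them. To show the element in strongly differing members, a window of 80 bases upstream of the start that holds it is printed with the match in capitals (TTTC, any 2 bases and TTTC is the same motif on the other strand). The windows are EPSTI1 (chr13:42992247-42992326, minus strand), IFI6 (chr1:27672241-27672320, minus strand), IFI44L (chr1:78620340-78620419, plus strand), IFI27 (chr14:94110606-94110685, plus strand), ISG20 (chr15:88638912-88638991, plus strand) and IFIH1 (chr2:162318685-162318764, minus strand). Their last bases lie 6, 49, 29, 51, 25 and 1 before the start, in this order.
EPSTI1: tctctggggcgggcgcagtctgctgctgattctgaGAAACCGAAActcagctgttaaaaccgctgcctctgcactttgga
IFI6: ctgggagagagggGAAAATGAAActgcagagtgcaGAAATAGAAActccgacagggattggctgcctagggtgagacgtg
IFI44L: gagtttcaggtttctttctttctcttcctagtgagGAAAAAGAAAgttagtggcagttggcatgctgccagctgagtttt
IFI27: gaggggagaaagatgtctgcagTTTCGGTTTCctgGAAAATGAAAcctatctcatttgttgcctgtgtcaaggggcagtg
ISG20: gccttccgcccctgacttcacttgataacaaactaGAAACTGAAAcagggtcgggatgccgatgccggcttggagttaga
IFIH1: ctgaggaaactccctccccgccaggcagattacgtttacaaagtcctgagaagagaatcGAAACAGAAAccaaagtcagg
The genes behind these windows were 28.9-fold (EPSTI1), 25.3-fold (IFI6), 22.8-fold (IFI44L), 21.1-fold (IFI27), 10.1-fold (ISG20) and 8.0-fold (IFIH1) higher. A match is a description of the letters and not of binding.

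Antigen presentation was higher too. Of 29 tested members 25 were higher and 2 lower, 15 at least 2-fold higher, with a median log2 difference of 1.04. The list summed to 12800 to 14300 CPM against 6400 to 6780 in 786-O parental. In 786-O resistant it was as high, at 14200 to 15200 CPM. Class I molecules show peptides from inside the cell to CD8 T cells. B2M, their light chain, was at 2903, 3102 and 3427 CPM against 770, 802 and 817. TAP1, which pumps peptides into the endoplasmic reticulum and is uncertain for shared sequence, was at a median of 295 against 95.9 CPM, and NLRC5, the class I transactivator, at 70.1 against 16.9 (all chosen after their values were seen). Class II genes were low in both sets. HLA-DRB1 was at 1.57, 1.92 and 2.70 CPM against 3 counts in all of 786-O parental, a ratio of 236 with a counting interval from 80.3 to 1150, and it is uncertain for shared sequence. HLA-DPA1 was at a median of 3.60 against 0.109 CPM. CIITA, the class II transactivator, was lower by contrast, at 27.9 against 35.7 CPM, is uncertain for an overlapping gene and was chosen after its values were seen.

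Genes of checkpoint ligands did not move together: of 19 tested, 10 were higher and 7 lower, with a median log2 difference of 0.07. The 89.5% called were close to the 83.5% over all genes. CD274, the gene of PD-L1 and the target of all 3 antibodies (chromosome 9, 5450503 to 5470566), was at 6.89, 8.92 and 9.75 CPM against 9.18, 10.3 and 12.3. The sets overlapped, and the log2 difference was -0.36 ± 0.051 (adjusted p = 2.31e-08). VTCN1, the gene of B7-H4, was at 4.58, 4.93 and 5.64 CPM against 0, 0.03 and 0.103. VSIR, the gene of VISTA, was at a median of 12 against 1.39 CPM. TNFRSF14, which encodes the herpesvirus entry mediator HVEM, was 4.24-fold lower and is uncertain for an overlapping antisense gene.

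Targets of NF-κB, the factor that drives inflammatory cytokines, were lower in 22 of 30 tested members and higher in 6, 9 of them at least 2-fold lower and 2 at least 2-fold higher. The median log2 difference was -0.45, and -0.90 over the 16 cytokines. CSF2, which encodes the growth factor GM-CSF, was at 0.752, 0.939 and 1.61 CPM against 8.77, 12.8 and 19.7. CXCL1, a neutrophil chemokine, was at 0.241, 0.619 and 0.978 CPM against 4.63, 5.65 and 7.32, and TNF at 0.169, 0.50 and 0.769 against 1.99, 3.19 and 4.87. None of these, picked for the size of their change, overlapped between the sets. CCL5, a T cell chemokine that interferon also induces, went the other way, at a median of 43.8 against 1.45 CPM, with the limit that part of its sequence is shared with near copies. IL6, uncertain for its antisense gene and chosen after its values were seen, was at 14.6 against 19.2 CPM, and the sets overlapped.

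**Figure D3:**
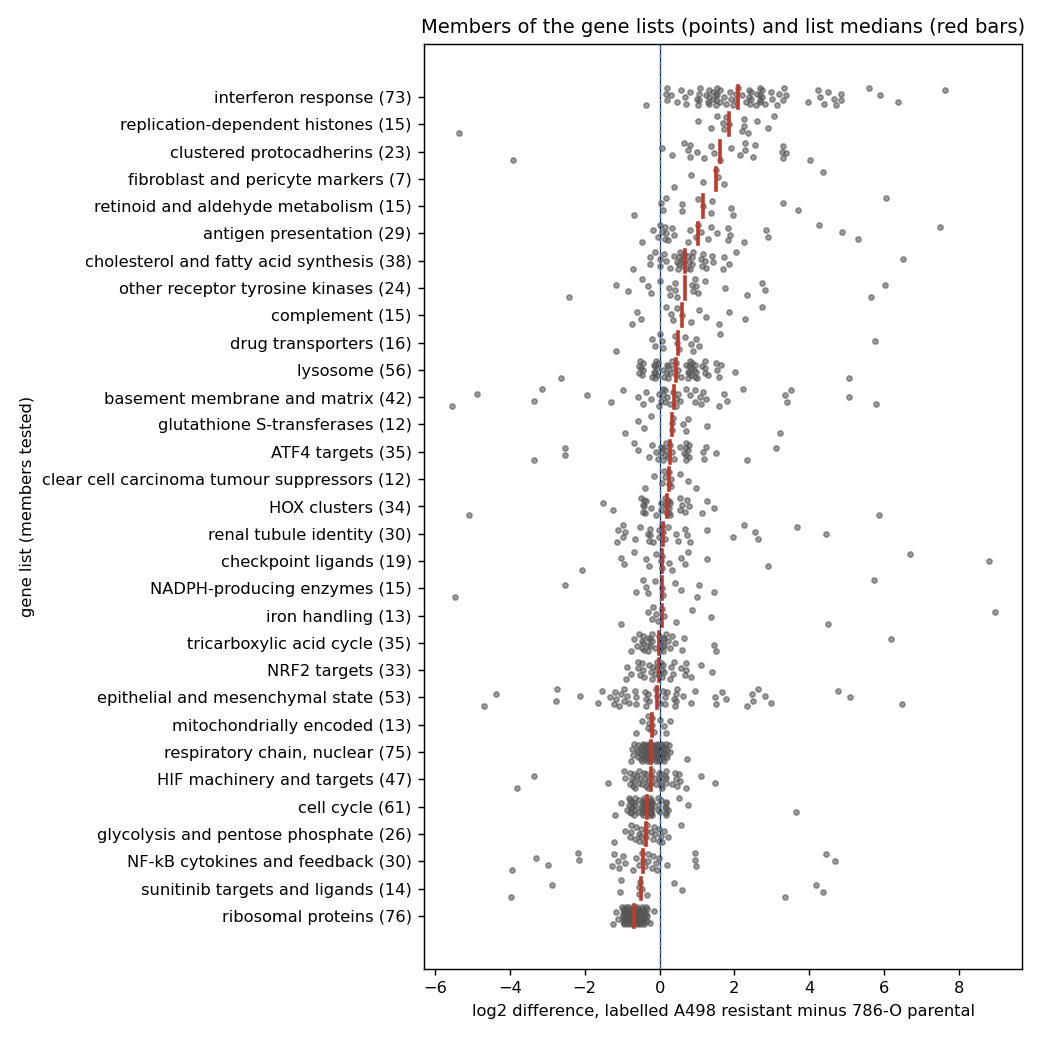
Log2 differences (x axis) of the tested members of 31 gene lists (points, number tested in parentheses) with the list medians (red bars) and the median over all genes (dashed line). The medians run from -0.67 for ribosomal proteins to 2.09 for the interferon response.

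All 76 genes of ribosomal proteins were lower, against a background of 40.8% called lower, with a median log2 difference of -0.67. Only 3 were at least 2-fold lower, and their share of all counts was 3.26 to 3.57% in the libraries labelled A498 resistant against 4.79 to 5.21% in 786-O parental. RPL3, a core protein of the large subunit chosen after its values were seen and uncertain for near copies, was at 960, 1001 and 1049 CPM against 1701, 1765 and 1879. The share in 786-O resistant was 3.08 to 3.73%. Without a scaling factor 75 of the 76 were lower.

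**Figure D4:**
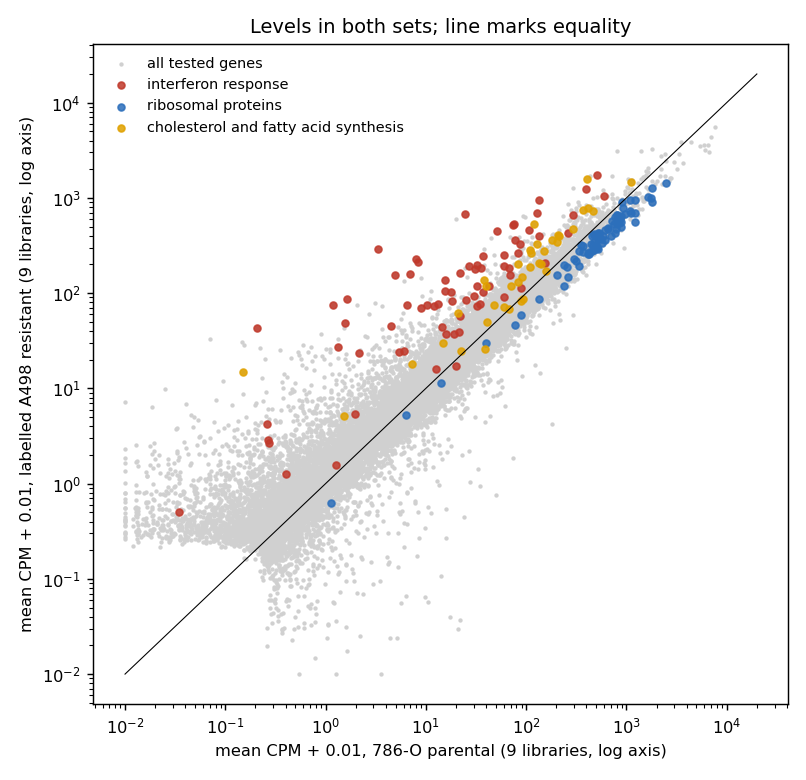
Mean CPM + 0.01 of 9 libraries labelled A498 resistant (y axis) against 9 of 786-O parental (x axis), both log axes, for all 18901 tested genes (grey) and 3 gene lists. Interferon genes, 71 of 73 called higher, lie mostly above the line of equality, and ribosomal protein genes, all 76 called lower, mostly below it.

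Growth and energy genes moved by smaller amounts. Of 61 tested cell cycle genes 46 were lower and 10 higher, 2 and 1 of them at least 2-fold. Of 27 replication genes 26 were lower and none higher, with a median log2 difference of -0.47. MCM5, of the replicative helicase, was at a median of 116 against 191 CPM, and CDC20, which activates the anaphase-promoting complex, at 203 against 417. TOP2A, which untangles DNA, went the other way, at 569 against 357 (chosen after its values were seen). CDKN1C, an inhibitor of cyclin-dependent kinases, was 12.4-fold higher. In glycolysis 19 of 26 genes were lower and 4 higher, with ENO1 (enolase) at 2337 against 3689 CPM. Of 75 nuclear genes of the respiratory chain 49 were lower and 15 higher, none of them 2-fold, and without a scaling factor the counts were 36 and 29. Of 13 mitochondrially encoded genes 6 were lower and 1 higher. These took 1.37 to 2.11% of counts against 1.49 to 2.08%, so the sets overlapped.

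Sterol and fatty acid synthesis was higher. The enzymes are controlled by the SREBP factors, which rise when membrane cholesterol is low. Of 38 tested members 32 were higher and 4 lower, 12 at least 2-fold higher, and among 20 sterol enzymes 19 were higher and 1 lower. SCD, which desaturates stearate to oleate, was at 1481, 1576 and 1710 CPM against 309, 429 and 488. SC5D, a late enzyme of cholesterol synthesis, was at 130, 137 and 146 CPM against 34.6, 38.6 and 42.9. SREBF2, the gene of the sterol regulator, was 1.69-fold higher (chosen after its values were seen). HMGCS1, uncertain for overlap and shared sequence, was 4.10-fold higher. The sterol regulatory element, searched as TCACNCCAC on both strands, was in 1 of 22 promoters of sterol enzymes and regulators and in 1.15% of all.

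Lysosomal genes, which sunitinib is known to meet because the weakly basic drug collects in lysosomes, were higher in 38 of 56 and lower in 15, with 12 at least 2-fold higher. The list summed to 13300 to 13800 CPM against 8680 to 8990, and 786-O resistant was as high, at 13600 to 14600. Hydrolases had a median log2 difference of 0.75 (27 of 35 higher) and membrane proteins 0.10 (11 of 21 higher). GPNMB, a membrane glycoprotein that rises in lysosomal stress, was at 18.9, 20.7 and 22.2 CPM against 0.272, 0.568 and 0.858. NEU1, the lysosomal sialidase, was at 283, 296 and 312 CPM against 81.8, 84.9 and 90.9, and CTSH, a cathepsin, 3.03-fold higher. Of 16 drug transporters 12 were higher and 2 lower. ABCB1, the gene of P-glycoprotein, was at a median of 31.1 against 31.5 CPM with overlap (log2 difference -0.19 ± 0.032, adjusted p = 9.23e-07), which did not pass without a scaling factor (log2 difference -0.05, adjusted p = 0.177). ABCG2, the breast cancer resistance protein, was 1.95-fold higher (both chosen after their values were seen). ABCB5 was at 1.35, 1.69 and 1.84 CPM against 0, 0.0245 and 0.102.

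Of 9 target kinases of sunitinib in the list, PDGFRB and CSF1R alone had counts enough to be tested. PDGFRB, the receptor of PDGF-BB (chromosome 5, 150113837 to 150155872), was at 5.35, 6.22 and 7.00 CPM against 0.142, 0.23 and 0.402, a log2 difference of 4.36 ± 0.12 (adjusted p = 4.45e-31). The medians of 786-O resistant and A498 parental were 0.623 and 0.294 CPM, so the libraries labelled A498 resistant were the highest of the 4 states. CSF1R was at 0.0817, 0.226 and 0.457 CPM against 1.23, 1.59 and 2.13. Among the 12 tested ligands 8 were lower and 4 higher. VEGFA, the angiogenic factor, was at a median of 205 against 270 CPM (chosen after its values were seen), and PDGFC at 28.6 against 55.2. IL34, a ligand of CSF1R, was 10.2-fold higher.

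Other receptor tyrosine kinases were higher in 16 of 24 and lower in 6, with a median log2 difference of 0.68. FGFR2, a receptor of fibroblast growth factors, was at 73.0, 75.3 and 83.0 CPM against 12.4, 13.9 and 16. FGFR3 was 3.38-fold higher and DDR2, a collagen receptor, 7.02-fold. EGFR and AXL were at medians of 579 against 267 and of 761 against 493 CPM. In 786-O resistant their medians were higher still, at 706 and 843 CPM. MET, the receptor of hepatocyte growth factor, was lower at 452 against 723 (these 3 were chosen after their values were seen). NTRK3, a neurotrophin receptor, was 5.33-fold lower.

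Hypoxia genes were mostly lower, by small amounts: of 47 tested 27 were lower and 13 higher, with a median log2 difference of -0.24. STC2, a secreted glycoprotein also driven by ATF4, was at 25.5, 26.3 and 28.4 CPM against 220, 252 and 270. LOX, which crosslinks collagen, was at a median of 0.619 against 7.93 CPM. NDRG1 was higher, at 743 against 307. VHL was 1.11-fold higher. Of 12 tumour suppressors of this carcinoma 10 were higher and 2 lower, none by 2-fold.

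ATF4 targets, the amino acid and stress response, were higher in 24 of 35 and lower in 8. NUPR1, a stress-induced chromatin protein, was at 45.4, 53.9 and 58.4 CPM against 4.22, 5.84 and 6.97. SLC6A9, a glycine transporter, was at 1.27, 1.45 and 1.64 CPM against 5.99, 7.43 and 9.31. Of 33 NRF2 targets 14 were higher and 15 lower, and the 87.9% called were close to the 83.5% over all genes. Among NADPH-producing enzymes IDH1, the cytosolic isocitrate dehydrogenase, was at 315, 339 and 346 CPM against 101, 114 and 122. ME3, the mitochondrial malic enzyme, was at 0.0408, 0.0965 and 0.124 CPM against 2.89, 3.65 and 4.04. Retinoid and aldehyde enzymes were higher in 12 of 15 and lower in 1, with 9 at least 2-fold higher. ALDH1A1, which makes retinoic acid, was at 311, 329 and 354 CPM against 93.1, 117 and 127, and DHRS2, a mitochondrial reductase, was 66.8-fold higher.

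Matrix genes moved far in both directions. Of 42 tested 26 were higher and 11 lower, 13 and 6 of them at least 2-fold. COL12A1, a fibril-associated collagen, was at 69.2, 75.9 and 84.3 CPM against 1.71, 1.96 and 2.65. COL4A4, a chain of the glomerular basement membrane, was at 5.79, 6.53 and 7.20 CPM against 0.0285, 0.0981 and 0.18. COL6A3, a chain of microfibrillar collagen VI, was at 3.72, 4.29 and 4.58 CPM against 159, 178 and 211. The partner chains COL6A1 and COL6A2 were 1.36- and 1.27-fold higher, so COL6A3 moved apart from them. NID1, which bridges laminin and collagen IV, was at 0.725, 0.996 and 1.35 CPM against 24.1, 27.5 and 28.9. FN1, fibronectin, was at a median of 2914 against 6617 CPM and TNC, tenascin-C, at 14.7 against 131. The collagen VI partners, FN1 and TNC were chosen after their values were seen.

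Of 26 epithelial genes 18 were higher and 8 lower, while of 27 mesenchymal genes 19 were lower and 5 higher. The median log2 differences were 0.79 and -0.37. CDH1, E-cadherin, was at 1.65, 1.95 and 2.74 CPM against 0, 0.057 and 0.0913, and DSP, desmoplakin of the desmosome, at 15.7, 17.3 and 18.9 against 0.473, 0.539 and 0.76. Not all epithelial genes followed: EPCAM, an epithelial adhesion molecule, was at 0.0391, 0.226 and 0.572 CPM against 4.27, 5.26 and 5.96, and KRT19 was 2.91-fold lower. CDH13, a cadherin without a cytoplasmic tail, was at a median of 1.47 against 34.1 CPM, and MMP2, a matrix protease, at 8.84 against 54.8. VIM, vimentin, was 2.12-fold lower and is uncertain for overlap, and CDH2, N-cadherin, was at 279 against 312 (KRT19, MMP2, VIM and CDH2 were chosen after their values were seen).

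Of 30 tested genes of the renal tubule 14 were higher and 12 lower. The 86.7% called were close to the 83.5% over all genes. PAX8, a kidney lineage factor, was at a median of 227 against 296 CPM and PAX2 at 29.5 against 16.3 (both chosen after their values were seen). SIM1, a factor of the developing kidney and brain, was 3.92-fold higher and SLC22A2, an organic cation transporter, 12.8-fold. Among complement genes 11 of 15 were higher and 3 lower, with CLU, clusterin, at 82.4, 87.8 and 93.3 CPM against 15.8, 16.3 and 18.

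Of 15 tested histone genes, whose usual transcripts lack a poly(A) tail and are captured poorly by the poly(A) selection of these libraries, 14 were at least 2-fold higher and 1 at least 2-fold lower. The list summed to 114 to 127 CPM against 21.3 to 28.1, and to 130 to 151 in 786-O resistant. H2AC6 was at 26.3, 28.4 and 31.4 CPM against 2.35, 3.31 and 3.73. Of 23 tested clustered protocadherins, adhesion proteins whose near-identical copies make their values uncertain, 22 were higher and 1 lower, at low levels. Another 36 were not tested. A gene can pass the filter through 1 set alone, so the tested members may lean to the higher set. All 59 summed to 81.8 to 87.0 CPM against 53.2 to 61.8, and to 77.5 to 87.3 in 786-O resistant. Of 226 zinc finger genes of chromosome 19, 146 were higher and 35 lower, with a median log2 difference of 0.27.

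Some genes set these libraries apart from 786-O resistant as well. Against 786-O resistant 1106 of 19715 tested genes (5.61%) differed at least 2-fold, 621 higher (3.15%) and 485 lower (2.46%), with a share of 68.4% called at any size. The genes named on the high side were at least 5 CPM and moved the same way from both 786-O states. CLDN16 was at a median of 12.2 CPM, 0.0709 in 786-O parental and 0.923 in 786-O resistant. FLG, filaggrin of the skin barrier (chromosome 1, 152302175 to 152325203), was at 544, 651 and 767 CPM, against 67.6, 88.4 and 131 in 786-O parental and a median of 123 in 786-O resistant. Its log2 differences were 2.65 from 786-O parental and 2.38 from 786-O resistant. AIF1L, an actin-bundling protein, was at 33.9 CPM against 4.33 and 5.64, UGT2A3, a glucuronosyltransferase, at 11.3 against 0.484 and 1.58, and DHRS3, a retinal reductase, at 35.8 against 2.44 and 5.66. CLDN2, a pore-forming claudin of the proximal tubule whose value is uncertain for overlap, was at 41.1 against 5.63 and 4.48 CPM.

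On the low side, CSF2 had a median of 0.939 CPM against 12.8 in 786-O parental and 9.33 in 786-O resistant, with log2 differences of -3.95 and -3.23. PLEK2 and B3GALNT1 were already low in 786-O resistant, at medians of 0.344 and 0.392 CPM, and lower still in the libraries labelled A498 resistant, by log2 differences of -4.25 and -3.77. CXCL8, the gene of interleukin-8 (chosen after its values were seen), was at 5.78 CPM against 25.1 in 786-O parental and 48.6 in 786-O resistant. TNF was at 0.50 against 3.19 and 4.22. Other genes far from 786-O parental were close to 786-O resistant: COL12A1 differed from it by a log2 of 0.01, NID1 by 0.11 and LOX by 0.11.

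Along the genome, 13408 tested protein-coding genes on named chromosomes had a median log2 difference of 0.007. The chromosome medians were highest for 15 (0.316, 439 genes) and 19 (0.161, 964 genes) and lowest for 22 (-0.358, 319 genes), 12 (-0.236, 717 genes) and 16 (-0.19, 621 genes). In 258 stretches of successive tested genes, each of 50 genes except the last of a chromosome (up to 99), 4 had a median of at least 0.5 and 1 of at most -0.5. The highest, 1.015, covered the histone and HLA cluster (chromosome 6, 26158146 to 30343729), where 25 of 50 genes were at least 2-fold higher. Its 33 genes other than histone and HLA genes, a split made after the values were seen, had a median of 0.354, with 8 at least 2-fold higher and none lower. The lowest, -0.554, lay on chromosome 22 (38734725 to 42084284), where the median of 786-O resistant minus 786-O parental was -0.502. That comparison shares the 786-O parental libraries. The other 3 at 0.5 or more lay on chromosome 15. Their medians were 0.517 (50500562 to 61229319), 0.509 (67542709 to 75117462) and 0.5 (75195643 to 81314058), and against 786-O resistant they were 0.351, 0.01 and 0.046.

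**Figure D5:**
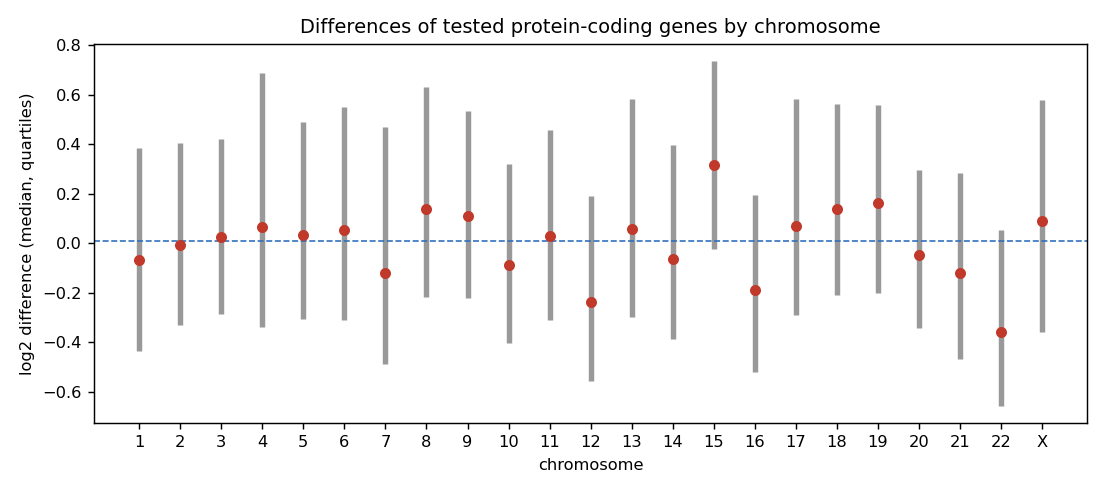
Median (red points) and quartiles (grey bars) of the log2 difference of tested protein-coding genes on each chromosome, with the median over all of them as a dashed line. Chromosome 15 has the highest median, 0.316, and chromosome 22 the lowest, -0.358.

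The numbers of genes called under the 3 antibodies were close. With 3 libraries per group, a gene that the test of dependence below did not call may still differ between antibodies. Under atezolizumab 13668 genes were called (72.3%), under avelumab 13899 (73.5%) and under durvalumab 13324 (70.5%). A test of whether the difference depended on the antibody called 214 genes (1.13%), a count that ran from 81 (without A498 resistant atezolizumab replicate 2) to 564 (without 786-O parental durvalumab replicate 1) with 1 library left out and was 388 with the replicate block. Of the 214, 178 had the same sign under all 3 antibodies, and 19 had log2 differences at least 1 apart, with a median range of 0.35. The summed CPM of the interferon list was 16100 ± 92.5 (SD, n = 3) under atezolizumab, 16500 ± 240 under avelumab and 16300 ± 301 under durvalumab where the label is A498 resistant. It was 4410 ± 196, 4190 ± 119 and 4350 ± 83.1 in 786-O parental.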

How the data were processed

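The comparison set 9 libraries labelled A498 resistant against 9 of 786-O parental, in 6 groups of 3. The values that the authors deposited are raw read counts by gene and library. The submitters' processing notes name HISAT2 2.1.0 and the build GRCh38, Trimmomatic 0.36.6, featureCounts 1.6.3 and bcl2fastq 2.19.0. Per the labels' protocols the libraries were stranded and poly(A)-selected. For the annotation release and the strand setting the sources used here give nothing. A gene is therefore called uncertain where another gene overlaps 10% or more of its exons, or where 10% or more of its 50-base words occur in other genes. Reads were counted without molecular identifiers, and depth sets the precision of low values.

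The table held 45478 identifiers, of which 32477 had a symbol and 43799 found in GENCODE release 29, which gave coordinates. Genes were kept by filterByExpr (count minimum 10, total minimum 15), scaled by TMM and fitted by group in edgeR 4.0.16 in R 4.3.3 with robust quasi-likelihood. CPM values use raw library totals. Within a group no library was a copy of another, and pairs across groups were not checked. Same-numbered libraries did not deviate together (r from -0.0577 to 0.0887), so numbers were not used as pairs. The comparison with 786-O resistant was fitted on 27 libraries.

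Named genes were the 12 highest and the 12 lowest differences (called with the same sign under every antibody, at least 5 CPM in the higher set, with a symbol), up to 4 members of each list by size of change (1 CPM or more), up to 8 genes on each side that stood apart from both 786-O states, 4 genes that depended on the antibody, and CD274, HIF1A and VHL. Some genes are not reported here. The members and the lists were chosen with earlier results of these data known. Alternatives were other scalings, DESeq2 1.42.0, no filter, a strict filter (10 CPM in 3 libraries), a replicate block, all 36 libraries in the fit, thinned counts and each library left out. The script's recovery was tested on simulated data in which few genes changed, equally often up and down, at 1 fixed spread. Most genes differed here, so that test cannot show how the calls or the scaling hold in these data.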

Additional observations from a re-analysis of the deposited data

Results flagged for a closer look

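The difference between the libraries labelled A498 resistant and 786-O parental depended on the antibody for 214 genes by edgeR's interaction test, and for 81 to 564 genes with 1 library left out. The 4 genes named from them are given with their values. MIR3667HG, a host gene of a microRNA (adjusted p = 5.17e-07), was at 7.36, 7.79 and 7.13 CPM in 786-O parental under atezolizumab, 12.7, 13.1 and 12.8 under avelumab and 12.6, 12.2 and 11.8 under durvalumab. In the libraries labelled A498 resistant MIR3667HG stayed between 30.6 and 34.4 CPM. GADD45B, a stress-induced gene (adjusted p = 1.91e-06), had log2 differences of 0.61, 0.90 and 1.12 under atezolizumab, avelumab and durvalumab. CEP152, a centriole protein (adjusted p = 3.58e-05), had log2 differences of -0.13, -0.58 and -0.77. QPRT, an enzyme of NAD synthesis that is uncertain for shared sequence (adjusted p = 8.14e-05), had 2.32, 1.86 and 2.05. For these 4 genes the sign was the same under the 3 antibodies.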

How the results depend on the processing

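None of 4551 recomputed values of the 171 genes named by rule, and none of 1130 values of 42 genes named after their values were seen, reversed under the alternatives run. Calls were lost without a scaling factor for HIF1A (adjusted p = 0.235), MT-ATP6 (0.126) and MT-ND2 (0.122), and for ABCB1 (0.177). SOCS1 gained a call without a scaling factor (0.00681) and with thinned counts (0.00487). A strict filter tests fewer genes, and it gave 9527 called, 4864 higher and 4663 lower, 733 and 289 of them at least 2-fold, with 8778, 8791 and 8616 under atezolizumab, avelumab and durvalumab and 180 at least 2-fold against 786-O resistant. No filter tests more genes, and it gave 4536 higher and 1637 lower at least 2-fold, 2032 at least 2-fold against 786-O resistant, and 597 that depended on the antibody. The count of 214 antibody-dependent genes was the least stable: 355 with DESeq2, 388 with the replicate block and 142 with all 36 libraries in the fit, and the cause was not tested. It ran from 81 to 564 with 1 library left out. It moved by over 1.5 times without any 1 of 12 libraries: A498 resistant atezolizumab replicate 1, 2 or 3, avelumab 1 or 3 and durvalumab 1, 2 or 3, and 786-O parental atezolizumab 3 and durvalumab 1, 2 or 3. The lowest value came without A498 resistant atezolizumab replicate 2 and the highest without 786-O parental durvalumab replicate 1. The replicate block gave 15772 called on average over antibodies, and it changed no other count by over 1.5 times. With 1 library left out the other counts ran from 15725 to 15958 called, 8058 to 8294 higher and 7488 to 7792 lower. At least 2-fold they ran from 2644 to 2788 higher and 1063 to 1112 lower, and from 1158 to 1223 against 786-O resistant. These 2-fold ranges lay wholly above the main counts of 2582, 1052 and 1106. The filter was rerun each time with 1 group of 2 libraries, and its part in this was not tested. Under atezolizumab the range was 13053 to 13866, under avelumab 13070 to 14098 and under durvalumab 12658 to 13518. Of 1998 recomputed list counts 41 moved by over 1.5 times, 27 with the strict filter and 11 without a scaling factor. Chosen after the data were seen, leaving out genes on the sex chromosomes moved the level of A498-restricted genes from 1.24 to 0.701% and of 786-O-restricted genes from 114 to 117%, and leaving out histone and HLA genes moved the highest stretch from 1.015 to 0.354. Totals of 0 to 12 counts over 9 libraries limit the fold changes of the genes at the extremes.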

Other observations

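Genes of iron handling and of insulin-like growth factor binding moved in both directions, as did all tested genes. SLC40A1, the iron exporter ferroportin, was at 2.15, 2.47 and 3.05 CPM where the label is A498 resistant and at 0, 0.118 and 0.301 in 786-O parental. STEAP2, a metalloreductase, was 2.58-fold higher, and of 13 tested iron genes 6 were higher and 6 lower. Over all genes 42.7% were higher and 40.8% lower. Of 6 tested genes of insulin-like growth factor binding 4 were higher and 2 lower, none of the first at least 2-fold. IGFBP1 was at 1.23, 1.53 and 2.27 CPM against 5.82, 6.56 and 8.64, and IGF2R, which carries IGF2 to lysosomes, was 1.69-fold higher.

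Of 34 tested HOX genes, which set body position, 19 were higher and 11 lower, 4 and 3 of them at least 2-fold. The 88.2% called were close to the 83.5% over all genes. HOXC13 was at 0.994, 1.20 and 1.63 CPM against 0, 0.0256 and 0.0709, with a median of 6.21 in A498 parental. Of 12 tested glutathione S-transferases 7 were higher and 4 lower. GSTP1 and NNT, both near 0 in A498 parental at medians of 0.346 and 0.141 CPM, were at 493 and 247 CPM where the label is A498 resistant against 350 and 108 in 786-O parental (chosen after their values were seen).

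Of 15 targets of YAP and TEAD 11 were higher and 3 lower, and of 23 immediate early and ERK feedback genes 2 were higher and 16 lower. ETV4, a factor downstream of ERK, was at 0.508, 0.723 and 1.07 CPM against 2.89, 3.35 and 3.95. CCN2, a YAP target, was at 64.9, 71.8 and 80.7 CPM against 23.8, 30.4 and 42.4.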
